A study of Mus musculus with 76 samples.

Results

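The 12 control (Ctrl) libraries of a mouse RNA-sequencing series describe the dorsal forebrain, the region that holds the developing cortex, at embryonic day 16 when neither parent had been exposed to the insecticide under study. They were chosen by their label and are 12 of the 76 libraries of the series. Ctrl replicates 1 to 6 are labelled batch 1 (3 female and 3 male embryos) and replicates 7 to 12 batch 2 (2 female and 4 male). The embryos were C57BL/6J mice, and both parents had received vehicle over 28 days, 7 days at first and then 3 cycles of 2 days off and 5 days on, before they were paired. The other 64 libraries, of the same strain, tissue and age, were used here only as further embryos in which the same measures could be taken. Their fathers, mothers or both parents had received α-cypermethrin, a pyrethroid, on that schedule at a dose labelled 0.3 (Paternal_0.3Cyp, Maternal_0.3Cyp and Both_0.3Cyp, n = 12 each) or 10 (Paternal_10Cyp, n = 10; Maternal_10Cyp, n = 8; Both_10Cyp, n = 10), and the labels give no unit for the dose. No litter is labelled, so the p-values measure the spread between these embryos and could be too small where littermates are alike. The questions were which genes the untreated tissue expressed, and at what level, and which genes varied together from embryo to embryo within a batch.

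At this age radial glia, the neural stem cells that line the ventricle and carry the transcription factor Pax6, divide to make intermediate progenitors marked by Eomes, and these in turn make the excitatory neurons of the cortical layers, deep layers before upper ones. Inhibitory interneurons migrate in from the ventral forebrain, and as neurogenesis wanes the progenitors turn to making astrocytes and oligodendrocyte precursors, the latter marked by Olig1 and Olig2. A dissected piece of tissue also holds blood, vessels, microglia and meninges, and can hold choroid plexus or neighbouring brain regions. In such bulk tissue, fewer cells of a type and less RNA per cell cannot be told apart.

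Each Ctrl library held 17930254 to 19861390 counts, so that 1 count in a library of median size equals 0.0528 CPM, the unit of counts scaled for library size. Some libraries stood apart from the rest. On the first principal component of batch-centred log2 CPM, which held 39.8% of the variance over 9956 genes with a mean of at least 10 CPM, replicate 3 had a score of -25.7 and replicates 5 and 6 had 14.9 and 17.4, while the others lay between -8.8 and 8.06. Replicate 3 also had 116 CPM of Tcf7l2, a transcription factor of the thalamus, where the other 11 libraries had 7.26 to 25.7, and 26.9 CPM of Emx1, which marks the dorsal telencephalon, where the others had 35.4 to 73.6. Replicates 5 and 6 had the highest Pax6 of all 12. Replicate 1 was the highest of its batch in meningeal genes. The counts of genes that varied with Pax6 and Olig1 are therefore also given with some of the libraries left out.

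Genes of the cytoskeleton were among the highest in the tissue. Levels that can be compared between genes were taken per length, as counts divided by the gene's median transcript length and scaled to the same sum in every library, in the unit TPM. Predicted genes left aside, the gene of highest level was Tuba1a, the alpha tubulin of young neurons, at 17720 ± 788 TPM (SD, n = 12). Also among the 10 highest were Tubb2b, a beta tubulin, at 6547 ± 217, and Stmn1, a regulator of microtubules, at 5911 ± 335. Tubb3, the beta tubulin of neurons, at 5076 ± 169.5, and Actg1, a cytoplasmic actin, at 5071 ± 170.6, were among them too. The other genes among the 10 highest were Eef1a1, a translation factor (10070 ± 629), the mitochondrially encoded cytochrome oxidase genes mt-Co1 (8130 ± 614) and mt-Co2 (5831 ± 1189), the imprinted gene Nnat (6256 ± 1006) and Ptma (5294 ± 550.2).

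Among progenitor genes, those of radial glia had the highest sum, and that sum differed little between libraries. Single members were less even, with a median SD of log2 CPM within batch of 0.209. The 24 radial glia genes summed to 3300 TPM in the lowest library, 3480 in the median and 3800 in the highest, all per length. Fabp7, a fatty acid binding protein of radial glia, was the highest at 990 ± 95.2 TPM (SD, n = 12), followed by the filament protein Vim at 485 ± 78.1 and Dbi at 480 ± 56.4. Pax6 itself stood at 30.5 ± 7.16. The 25 cell cycle genes summed to 773, 977 and 1540 TPM in the lowest, median and highest library, led by the replication clamp Pcna at 176 ± 25.6, with the proliferation marker Mki67 at 18.9 ± 4.74. The 13 intermediate progenitor genes summed to 461, 651 and 922, with Hes6 at 156 ± 11.3, Insm1 at 149 ± 31.9, Eomes at 70.8 ± 22.9 and Neurog2, a proneural factor, at 69.4 ± 28.3. The cell cycle and intermediate progenitor sums thus differed more between libraries than the radial glia sum did, and the highest library of both was replicate 6.

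Neuronal genes made up the largest sum of any cell class listed here. The 27 genes of neuron maturation summed to 11700, 13400 and 14700 TPM (lowest, median and highest library, per length), led by Tubb3, with the microtubule proteins Mapt at 2010 ± 287, Stmn2 at 1150 ± 125 and Dcx at 946 ± 101 (SD, n = 12). Upper-layer genes (12, summed level 1030, 1320 and 1440) were led by Lmo4 at 349 ± 33 and Mef2c at 208 ± 44.5. Deep-layer genes (14, summed level 1120, 1350 and 1530) were led by Bcl11b at 379 ± 52.5 and Tbr1 at 284 ± 42.6, factors of subcerebral and corticothalamic neurons. The upper-layer and deep-layer sums overlapped across libraries. Interneuron genes (18, summed level 1260, 1390 and 1650) were led by the peptides Sst at 304 ± 55.3 and Npy at 168 ± 40.4, and striatal genes (13, summed level 381, 446 and 534) by Ppp1r1b at 88.3 ± 9.18. The 7 Cajal-Retzius genes, of the early neurons at the cortical surface, summed to 88, 119 and 197, with the calcium-binding protein Calb2 at 54 ± 22.9 and the secreted protein Reln at 34.4 ± 13.6.

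Among glial genes, those of early astrocytes had the highest sum. Early astrocyte genes summed to 690, 1010 and 1200 TPM, and were led by the lipoprotein Apoe at 287 ± 72.6 (SD, n = 12), whereas the water channel Aqp4, a marker of mature astrocytes, stood at 7.94 ± 3.29. Of these 19 genes 17 passed the filter on low counts, and S100b and Agt did not. Oligodendrocyte precursor genes (10) summed to 88.3, 147 and 230, led by Olig1 at 67.9 ± 22.2. Olig1 alone thus supplied a large share of that sum. Microglial genes (21) summed to 136, 156 and 207, with the complement gene C1qa at 18.3 ± 3.1.

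Blood and vessel genes were measurable in every control embryo. The adult globin genes were high, with Hbb-bs at 2250 ± 263, Hba-a2 at 1640 ± 238, Hba-a1 at 1140 ± 137 and Hbb-bt at 561 ± 74.7 TPM (SD, n = 12, per length). Reads of Hba-a1 and Hba-a2, and of Hbb-bs and Hbb-bt, come from near-identical copies, so the split within each is uncertain. Of 20 erythroid genes listed, 11 were in the table and 7 passed the filter. Those under the filter included the embryonic globins Hbb-y and Hba-x and the erythroid factor Klf1, with medians of 2, 2.5 and 3 counts per library. Endothelial genes (24) summed to 396, 489 and 559, led by the tight junction protein Cldn5 at 120 ± 19.4, and mural genes (14 listed, 13 past the filter, Myh11 not) to 133, 185 and 232, led by Rgs5 of pericytes at 73.4 ± 7.79. The vessel sums differed less between libraries than those of meninges or choroid plexus did.

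**Figure D1:**
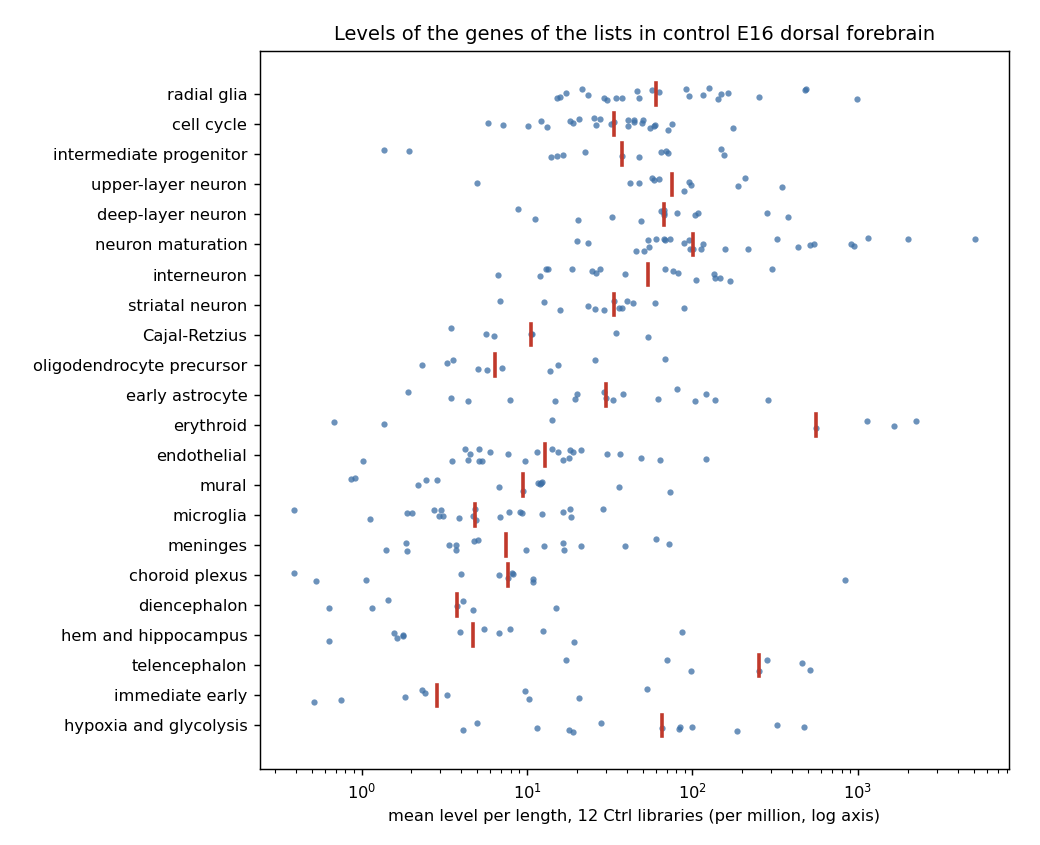
Mean level per length over the 12 Ctrl libraries (horizontal log axis, TPM) of each gene that passed the filter, by gene list (rows), with a red bar at each list's median. Neuron maturation genes reach the highest values, up to Tubb3 at 5076, while the diencephalon genes lie at or below Tcf7l2 at 15.

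Among the cell and tissue lists, those of neighbouring tissue differed most between control embryos. The choroid plexus makes cerebrospinal fluid, and the 11 genes of its list summed to 33.8, 914 and 1720 TPM (lowest, median and highest library, per length). Ttr, which carries thyroid hormone and is its main product, had 13.4 CPM in the lowest library (replicate 6), 467 in the median and 851 in the highest (replicate 11), a 63.7-fold range, and replicate 2 was also low, at 34. Folr1, a folate receptor of that tissue, had 0.267, 6.46 and 12.1 CPM, again lowest in replicate 6. Meningeal genes (16) summed to 115, 258 and 488 TPM, and the collagen gene Col1a1 had 5.2, 19 and 173 CPM, highest in replicates 7 and 9, which had 173 and 143. Diencephalon genes (7) summed to 12.9, 19.7 and 132. The highest library was replicate 3 for 6 of them, all but Tfap2b, with Gbx2 at 19.7 CPM where the other 11 libraries had 1.84 to 5.16. Gbx2 was also the only 1 of 9 hindbrain genes past the filter. Of the others Egr2, En1 and En2 were in the table below it, and the summed level of that list was 2.3, 3.04 and 22.5.

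Telencephalon genes, which define the labelled tissue, were present in all 12 libraries. Their 7 genes summed to 1010, 1670 and 2130 TPM, lowest in replicate 3. Emx1, a factor of dorsal forebrain, had 26.9, 51.6 and 73.6 CPM (lowest, median, highest) and Lhx2 136, 259 and 359, each lowest in replicate 3. The 12 genes of the cortical hem and hippocampus, at the medial edge of the dissected field, summed to 104, 154 and 183, led by Zbtb20 at 86.1 ± 16.3 TPM (SD, n = 12). The 10 immediate early genes, which respond to handling, summed to 90, 105 and 119, with Fos at 2.32 ± 0.702, and Egr1 ran from 1.51 to 9.09 CPM. The 13 genes of hypoxia and glycolysis summed to 1200, 1340 and 1780, led by Ldha at 472 ± 53.5. Replicates 11 and 12 were high in that list, with mean deviations of log2 CPM from the batch mean of 0.264 and 0.309, while the rest of batch 2 ran from -0.171 to -0.0706. The 80 ribosomal protein genes summed to 72600, 85400 and 91000 and the 13 mitochondrial mRNAs to 29100, 34200 and 40500. They held 2.62 to 3.53% and 1.37 to 1.99% of the counts of a library.

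**Figure D2:**
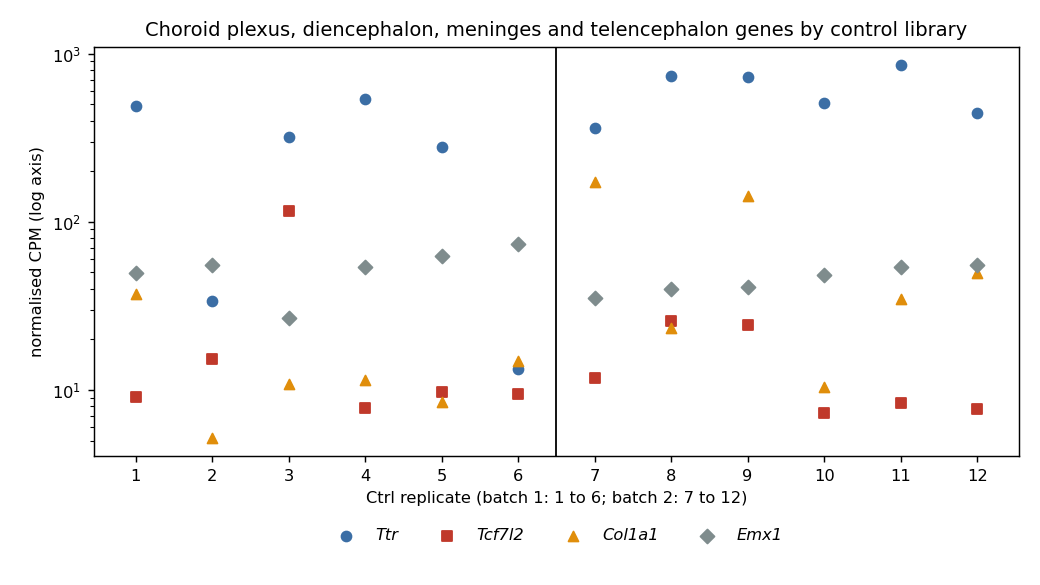
Normalised CPM (vertical log axis) of Ttr, Tcf7l2, Col1a1 and Emx1, genes of choroid plexus, diencephalon, meninges and telencephalon, in each Ctrl replicate (horizontal axis, batch 1 left of the line). Ttr is lowest in replicates 6 and 2 (13.4 and 34), Tcf7l2 is highest in replicate 3 (116), where Emx1 is lowest (26.9).

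Most genes differed little between control embryos of a batch. For the 9956 genes with a mean of at least 10 CPM, the median SD of log2 CPM after removal of batch means was 0.129, with 0.0617 at the 5th and 0.315 at the 95th percentile. It was 0.137 in batch 1 and 0.105 in batch 2. With predicted genes left aside, the most even gene was Znrf1, a ubiquitin ligase of neurons, with an SD of 0.0143. The 10 most even genes, up to an SD of 0.0319, included the phosphatase subunits Ppp2r5c and Ppp2r2d, Tmem167b, Dnajc8, Papss1, Rrp1, Nap1l4, Ndufv1 and Mras. At the other end stood 3 genes of the Y chromosome, Ddx3y, Kdm5d and Eif2s3y (SD 3.76 to 4.11), followed by Wdr41 (1.77), Ap2a1 (1.68), Ttr (1.62), the water channel Aqp1 (1.34), Col1a1 (1.28), the calcium channel Cacna1h (1.24) and Rps27 (1.21). Thus the tissue genes among the 10 most variable were of choroid plexus and meninges. By list, the median SD of members was 0.965 for choroid plexus, 0.936 for diencephalon and 0.802 for meninges, against 0.331 for intermediate progenitors, 0.326 for cell cycle, 0.209 for radial glia, 0.212 for neuron maturation and 0.145 for ribosomal proteins.

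Replicates 3, 5 and 6 lay far from the batch mean in several gene lists, replicate 3 opposite to the other two in some. A list score is the mean, over members with at least 1 CPM, of the deviation of log2 CPM from the batch mean. Replicate 3 had scores of 2.1 for diencephalon, 0.707 for oligodendrocyte precursors, 0.689 for Cajal-Retzius cells and 0.305 for neuron maturation, and of -0.722 for telencephalon, -0.594 for intermediate progenitors and -0.5 for cell cycle. Replicates 5 and 6 went the other way, with 0.398 and 0.546 for cell cycle, 0.457 and 0.575 for intermediate progenitors, -0.523 and -0.482 for oligodendrocyte precursors, and -0.423 and -0.469 for early astrocytes. Replicate 1 had 1.32 for meninges, 0.471 for microglia and 0.36 for mural cells. Batch 2 spanned a narrower range in cell cycle genes, from -0.151 to 0.156, than batch 1, from -0.5 to 0.546.

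**Figure D3:**
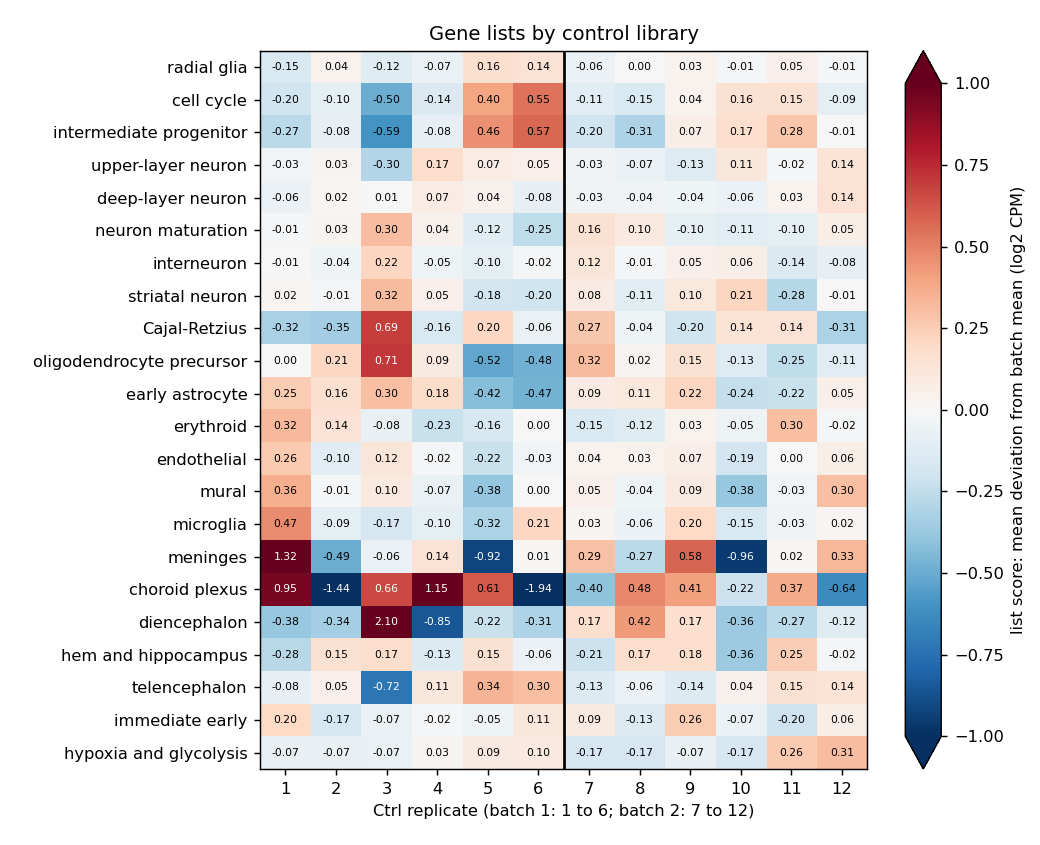
Score of each gene list (rows) in each Ctrl replicate (columns, batch 1 left of the line), as the mean deviation of log2 CPM from the batch mean, in numbers and colour (red higher, blue lower, colour limited to -1 and 1). Replicate 3 is high in diencephalon (2.1) and low in telencephalon genes (-0.72), and replicates 5 and 6 are high in cell cycle genes (0.40 and 0.55).

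To ask how the classes varied together, 1 gene stood for each: Pax6 for progenitors (chromosome 2, 105668900 to 105697364 on mm10), Rbfox3, the neuronal splicing factor NeuN, for neurons (chromosome 11, 118489762 to 118911597), Olig1 for glia (chromosome 16, 91269772 to 91271933), Hbb-bs for blood (chromosome 7, 103826534 to 103828096) and Cldn5 for vessels (chromosome 16, 18776847 to 18778262). Pax6 had 27.8, 35.2 and 61.2 CPM in the lowest, median and highest library, with replicate 6 (61.2) and replicate 5 (52.6) above the rest (27.8 to 43.1). Olig1 had 36, 70.9 and 114 CPM, and its lowest libraries were replicates 6 and 5 (36 and 37.4) and its highest replicate 3 (114). The libraries highest in Pax6 were thus the lowest in Olig1. Rbfox3 had 85.3, 97.4 and 113 CPM, Hbb-bs 537, 631 and 787, and Cldn5 57, 79.2 and 105. After removal of batch means the SD of log2 CPM was 0.49 for Olig1, 0.309 for Pax6, 0.229 for Cldn5, 0.175 for Hbb-bs and 0.105 for Rbfox3.

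Pax6 and Olig1 moved in opposite directions between embryos. Of the 10 pairs of the 5 genes, only this one passed after adjustment in the 12 libraries (Pearson's r = -0.93, n = 12, permutation p = 0.00074, 2-sided, Benjamini-Hochberg adjusted p = 0.0074, with batch means removed). Spearman's rho was -0.76 (permutation p = 0.0251, adjusted p = 0.126). Without the 2 libraries farthest from the median of Pax6, r was -0.85, and without replicate 3 it was -0.9. Within batch 1 r was -0.95 (exact permutation p = 0.0111, n = 6) and within batch 2 -0.84 (exact permutation p = 0.0236, n = 6). Adjusted over the 10 pairs, these permutation p-values were 0.0556 and 0.0787 and did not pass. The sign was thus the same in each batch, while neither batch alone nor rho passed after adjustment.

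The other pairs did not pass, and some differed between the batches. Olig1 and Cldn5 had r = 0.68 (permutation p = 0.0313, adjusted p = 0.14) and rho = 0.76 (permutation p = 0.00796, adjusted p = 0.0796), with r at 0.62 in batch 1, 0.9 in batch 2 and 0.61 without the 2 farthest libraries. Leaving out replicate 3 brought the adjusted permutation p of this r to 0.0485 (r = 0.74). Pax6 and Cldn5 had r = -0.62 and rho = -0.57 (permutation p = 0.0702 and 0.0718, adjusted p = 0.14 and 0.175), with -0.59 and -0.83 in the batches and -0.9 without the 2 farthest. Pax6 and Rbfox3 had r = -0.53 and rho = -0.5 (permutation p = 0.0479 and 0.0873, adjusted p = 0.14 and 0.175), but -0.96 in batch 1 and 0.19 in batch 2, and -0.25 without the 2 farthest libraries. Rbfox3 and Olig1 had r = 0.52 and rho = 0.53 (permutation p = 0.0681 and 0.0736, adjusted p = 0.14 and 0.175), with 0.88 and 0.035 in the batches and 0.42 without the 2 farthest.

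The blood gene changed sign between the batches in 3 of its 4 pairs. Hbb-bs and Cldn5 had r = 0.23 and rho = 0.021 (permutation p = 0.552 and 0.957, adjusted p = 0.789 and 0.991), with 0.79 in batch 1, -0.84 in batch 2 and 0.34 without the 2 farthest libraries. Olig1 and Hbb-bs had r = -0.0086 and rho = -0.028 (permutation p = 0.982 and 0.941, adjusted p = 0.982 and 0.991), with 0.35 and -0.96 in the batches and -0.52 without the 2 farthest. Pax6 and Hbb-bs had -0.063 and 0.007 (permutation p = 0.866 and 0.991, adjusted p = 0.962 and 0.991), with -0.3 and 0.82 in the batches and -0.25 without the 2 farthest. Each batch value rests on 6 libraries. Rbfox3 had r = 0.13 with Hbb-bs (rho -0.014, permutation p = 0.686 and 0.974, adjusted p = 0.857 and 0.991, 0.34 and 0.016 in the batches, 0.17 without the 2 farthest). It had r = 0.28 with Cldn5 (rho 0.24, permutation p = 0.379 and 0.475, adjusted p = 0.631 and 0.792, 0.6 and -0.066 in the batches, 0.35 without the 2 farthest).

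**Figure D4:**
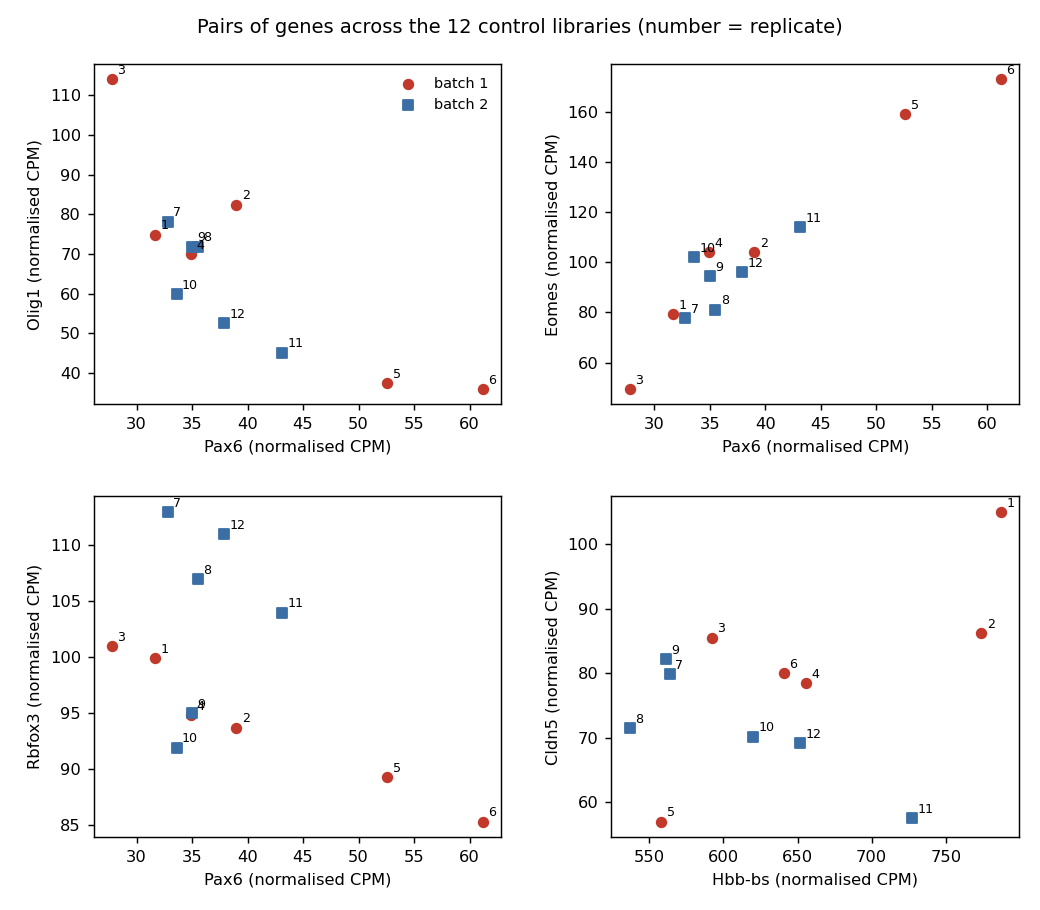
Normalised CPM of Pax6 against Olig1, Eomes and Rbfox3, and of Hbb-bs against Cldn5, in the 12 Ctrl libraries (circles batch 1, squares batch 2, numbers are replicates). Olig1 falls and Eomes rises along Pax6, with replicates 5 and 6 at one end (52.6 and 61.2 CPM of Pax6) and replicate 3 at the other (27.8).

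Genes of dividing cells rose together with Pax6. For every gene a slope was fitted by edgeR's quasi-likelihood test in the 12 Ctrl libraries, as the log2 change per SD of the log2 CPM of Pax6 with batch as a term, and p-values were adjusted by Benjamini-Hochberg over 13758 genes. Of these, 1330 rose with Pax6, a background of 9.67%, and 1693 fell, a background of 12.3%, at an adjusted p under 0.05 (22% in both directions), and the median slope of all genes was -0.00335. All 25 cell cycle genes rose, with a median slope of 0.272. Kif11, a motor of the mitotic spindle, had 32, 40.8 and 70.5 CPM (lowest, median and highest library), with replicates 5 and 6 both at 70.5 and the others up to 53.2. Its slope was 0.35 ± 0.04 (SE, n = 12, edgeR adjusted p = 7.7e-05). Hmgb2, a chromatin protein of dividing cells, had 59.8, 77 and 156 CPM and a slope of 0.33 ± 0.04 (edgeR adjusted p = 9.3e-05), and Top2a, a topoisomerase, 104, 127 and 217 CPM and 0.29 ± 0.04 (edgeR adjusted p = 0.00049). Both were lowest in replicate 3 and highest in replicate 6. The smallest slope of the list was that of Pcna, 0.15 ± 0.03, and the replication helicase genes Mcm3 and Mcm6 had 0.28 ± 0.04 and 0.18 ± 0.02.

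Some letters recur in the promoters of the cell cycle genes, and they were not used to choose the genes. Promoter windows (RefSeq, GRCm38.p6, 250 bases before to 50 after a start) were found for 21 of the 25 genes and were searched on both strands for TTTGAA, the core of the cell cycle homology region, for CCAAT, and for TTTCCCGC or TTTGGCGC, 8-letter forms of the E2F site. Of the windows of 12 mitosis genes, 8 (66.7%) held TTTGAA and 11 (91.7%) CCAAT, against 11.7% and 37.4% of 13856 windows of all tested genes, and 8 (66.7%) held both, against 4.72%. Of the windows of 7 replication genes, 6 (85.7%) held CCAAT and 1 (14.3%) TTTGAA. Of those 7, 3 (42.9%) held an E2F form, against 2.71% of all windows and 0 of the 12 mitosis windows. Over all 21 windows of the list, 10 (47.6%) held TTTGAA, 19 (90.5%) CCAAT and 3 (14.3%) an E2F form. The 250 bases before the start, 5′ to 3′ on the gene's strand, are shown for the mitosis genes Kif11 (chr19:37376132-37376381, plus strand) and Top2a (chr11:99024190-99024439, minus strand), which had the lowest p with Pax6 among those holding TTTGAA and CCAAT before the start. They are shown also for the replication genes Mcm6 (chr1:128359706-128359955, minus strand) and Mcm5 (chr8:75109259-75109508, plus strand), by the same rule for an E2F form. Capitals mark TTTGAA and CCAAT or their reverse complements in Kif11 and Top2a, and the E2F forms or their reverse complements in Mcm6 and Mcm5. A match describes the letters of the window and is not a measured binding site.
Kif11: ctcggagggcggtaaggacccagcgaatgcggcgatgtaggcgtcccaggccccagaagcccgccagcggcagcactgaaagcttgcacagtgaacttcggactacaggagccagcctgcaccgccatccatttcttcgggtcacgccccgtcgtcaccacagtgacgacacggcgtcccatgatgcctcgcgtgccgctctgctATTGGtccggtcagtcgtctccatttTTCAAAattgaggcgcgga
Top2a: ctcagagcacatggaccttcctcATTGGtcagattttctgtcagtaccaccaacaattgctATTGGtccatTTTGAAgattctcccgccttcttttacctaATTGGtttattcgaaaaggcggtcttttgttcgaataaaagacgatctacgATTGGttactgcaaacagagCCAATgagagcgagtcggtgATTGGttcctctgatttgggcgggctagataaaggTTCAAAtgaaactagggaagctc
Mcm6: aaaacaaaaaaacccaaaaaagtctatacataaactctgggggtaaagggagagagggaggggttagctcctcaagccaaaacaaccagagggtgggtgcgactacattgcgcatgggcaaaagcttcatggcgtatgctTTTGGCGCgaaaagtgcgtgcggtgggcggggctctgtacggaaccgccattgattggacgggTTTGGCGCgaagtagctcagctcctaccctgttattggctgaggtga
Mcm5: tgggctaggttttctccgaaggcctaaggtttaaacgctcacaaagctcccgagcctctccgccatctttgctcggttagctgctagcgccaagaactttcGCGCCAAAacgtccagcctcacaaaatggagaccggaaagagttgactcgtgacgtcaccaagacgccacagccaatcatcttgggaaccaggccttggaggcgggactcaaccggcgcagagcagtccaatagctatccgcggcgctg
Top2a holds 2 copies of TTTGAA and 6 of CCAAT in these bases, and Kif11 1 of each, while Mcm6 holds 2 E2F forms and Mcm5 1.

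Intermediate progenitor genes rose with Pax6 as well, 11 of 13 (background 9.67%), with a median slope of 0.256 and 0 that fell. Eomes, the marker of these cells, had 49.5, 99.1 and 173 CPM (lowest, median and highest library), with replicate 3 lowest and replicates 6 and 5 highest, at 173 and 159. Its slope was 0.43 ± 0.05 (SE, n = 12, edgeR adjusted p = 0.00016). Neurog2, which drives neuronal commitment, had 33.5, 66 and 129 CPM in the same order and a slope of 0.50 ± 0.08 (edgeR adjusted p = 0.0013). Neurog1, its relative, was near the limit of detection, at 0.155, 0.913 and 3.58 CPM, with a slope of 0.86 ± 0.19 (edgeR adjusted p = 0.0044). Rhbdl3 (0.37 ± 0.05), Mfng (0.28 ± 0.04) and Insm1 (0.24 ± 0.06) rose too, and Hes6 and Dll3 did not pass, with slopes of 0.05 ± 0.03 and 0.11 ± 0.05.

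Of 23 radial glia genes tested besides Pax6, 9 rose (background 9.67%), with a median slope of 0.078, while 3 fell, a share near the background of 12.3%. Gli3, a transcriptional effector of hedgehog signalling, had 20.7, 27.8 and 50.5 CPM, lowest in replicate 3 and highest in replicate 5, and a slope of 0.36 ± 0.04 (SE, n = 12, edgeR adjusted p = 5.7e-05). The nuclear receptor Nr2e1 (0.26 ± 0.03), Lhx2 (0.29 ± 0.06), the filament genes Vim and Nes (0.20 ± 0.02 and 0.22 ± 0.03), Notch1 (0.22 ± 0.04) and Emx2 (0.21 ± 0.05) were among the 9. The 3 with a called fall were the glutamate transporter Slc1a3 (-0.11 ± 0.02), Ttyh1 (-0.10 ± 0.03) and the endothelin receptor Ednrb (-0.14 ± 0.05). Fabp7, the most abundant of the list, did not pass, with 331, 359 and 466 CPM and a slope of -0.08 ± 0.03 (edgeR adjusted p = 0.062). Sox2, a stem cell factor, did not pass either, with a slope of 0.09 ± 0.03 (edgeR adjusted p = 0.051).

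Genes of maturing neurons fell as Pax6 rose, 14 of 27, against a background of 12.3%, while 2 rose, and the median slope was -0.125. Nefl, a neurofilament, had 71.2, 110 and 198 CPM, highest in replicate 3 and lowest in replicate 6, and a slope of -0.35 ± 0.04 (SE, n = 12, edgeR adjusted p = 0.00019). The calcium sensor Vsnl1 had 24.4, 43.6 and 86.9 CPM and -0.46 ± 0.07 (edgeR adjusted p = 0.0015), and the growth cone protein Gap43 447, 571 and 881 CPM and -0.23 ± 0.04 (edgeR adjusted p = 0.00051). Both were highest in replicate 3, and replicates 5 and 6 had their lowest values. Synaptic genes were among those that fell, such as Grin1, a receptor subunit (-0.25 ± 0.06), Camk2a (-0.23 ± 0.06), Syt1 (-0.18 ± 0.04) and Syp (-0.16 ± 0.03). The 2 that rose were Neurod2 (0.21 ± 0.05) and Neurod6 (0.22 ± 0.06), transcription factors of young excitatory neurons, which were lowest in replicate 3.

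Deep-layer genes passed with Pax6 in both directions and few upper-layer genes did, against backgrounds of 9.67% up and 12.3% down. Of 14 deep-layer genes 4 rose (Fezf2, Sox5, Tbr1 and Zfpm2) and 3 fell (Pcp4, Tcerg1l and Etv1), and of 12 upper-layer genes Pou3f2 and Pou3f3 rose and Lmo4 fell. The upper-layer counts are near or below those backgrounds. Fezf2, which specifies subcerebral neurons and is also made in progenitors, had 56.2, 98.4 and 146 CPM and a slope of 0.34 ± 0.05 (SE, n = 12, edgeR adjusted p = 0.00061), and Tcerg1l 12.4, 24.1 and 38.5 CPM and -0.38 ± 0.05 (edgeR adjusted p = 0.0001). Fezf2 was lowest and Tcerg1l highest in replicate 3.

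Of 13 striatal genes 7 fell and 0 rose (background 12.3% for falls), among them the peptide Penk (8.02, 15.6 and 22.6 CPM, slope -0.39 ± 0.05, SE, n = 12, edgeR adjusted p = 0.00018), the dopamine receptor Drd2 (-0.25 ± 0.05) and the retinoid receptor Rxrg (-0.20 ± 0.03). Of 18 interneuron genes 3 fell, a share near that background: Gad1, which makes GABA (66, 102 and 160 CPM, slope -0.26 ± 0.07), Npy (-0.26 ± 0.08) and the GABA transporter Slc32a1 (-0.17 ± 0.04). The factors that specify interneurons, Dlx1, Dlx2 and Lhx6, did not pass, with slopes of 0.02 ± 0.03, 0.05 ± 0.04 and -0.07 ± 0.03. Among the Cajal-Retzius genes, a class of the cortical surface, 1 of 7 passed, Trp73, which rose (0.17 ± 0.06, background 9.67%).

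Glial genes fell as Pax6 rose. Of 10 oligodendrocyte precursor genes 7 fell, with a median slope of -0.275, and of 17 early astrocyte genes 10 fell and 1 rose, with a median of -0.202, against a background of 12.3% for falls. Olig1 had a slope of -0.46 ± 0.06 (SE, n = 12, edgeR adjusted p = 0.00018), Olig2 -0.27 ± 0.05 with 19.2, 29.5 and 40.8 CPM, the receptor Pdgfra -0.23 ± 0.05, and Nkx2-2, of that lineage, -0.67 ± 0.15 with 0.968, 2.32 and 7.68 CPM. All of these but Pdgfra were highest in replicate 3. Among astrocyte genes, the mitochondrial glutamate carrier Slc25a18 had 0.909, 3.09 and 6.35 CPM and a slope of -0.79 ± 0.10 (edgeR adjusted p = 0.0001), Aqp4 1.68, 4.36 and 7.57 CPM and -0.52 ± 0.11 (edgeR adjusted p = 0.0031), and Apoe 79.1, 152 and 196 CPM and -0.36 ± 0.05 (edgeR adjusted p = 0.00082). Replicates 5 and 6 were the lowest 2 libraries for each of these 3 genes. The 1 that rose was Fgfr3 (0.21 ± 0.04), a growth factor receptor that radial glia also express.

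Lists of blood, vessel, immune and neighbouring tissue showed few calls with Pax6. The count was 0 of 7 erythroid, 0 of 16 meningeal, 2 of 24 endothelial (Ocln and Ly6c1, down), 1 of 13 mural (Atp13a5, down), 1 of 21 microglial (down), 2 of 11 choroid plexus (Prlr and Kl, down) and 1 of 7 diencephalon genes (Irx1, down). The background for falls was 12.3%, and nothing is read from counts this small. Slopes were nonetheless positive for only 1 of 16 meningeal (median -0.233), 0 of 11 choroid plexus (-0.35) and 0 of 7 diencephalon genes (-0.563). They were positive for 4 of 7 erythroid (0.0292), 6 of 24 endothelial (-0.0377), 3 of 13 mural (-0.0786) and 9 of 21 microglial genes (-0.017). Ttr had a slope of -0.53 ± 0.42 (SE, n = 12, edgeR adjusted p = 0.41) and Tcf7l2 -0.85 ± 0.30 (edgeR adjusted p = 0.077). Of the 7 telencephalon genes 6 rose, Emx1 by 0.29 ± 0.06 (edgeR adjusted p = 0.0055) among them, and all 7 were lowest in replicate 3. Of 12 hem genes Dmrt3 and Rspo3 rose (0.57 ± 0.09 and 0.29 ± 0.05) and Rspo2 and Lmx1a fell. Ier2 among 10 immediate early genes and Hk2 among 13 hypoxia and glycolysis genes rose, 4 of 13 mitochondrial mRNAs fell, and 0 of 80 ribosomal protein genes passed. The hindbrain list, which here is Gbx2 alone, did not pass, nor did the 4 Y genes.

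Outside the lists, the largest slopes among called genes with a mean of at least 5 CPM were those of Nhlh1, a factor of newborn neurons (0.57 ± 0.07, SE, n = 12), and Tfap2c, a factor of progenitors (0.44 ± 0.05), beside Neurog2, Hk2 and Eomes. The most negative were Syt13 (-0.71 ± 0.16), Creg2 (-0.65 ± 0.13), the proline transporter Slc6a7 (-0.65 ± 0.12), Resp18 (-0.63 ± 0.09) and Rit2 (-0.60 ± 0.08). Nhlh1 had its highest values in replicates 5 and 6 (16.3 and 15.2 CPM) and its lowest in replicate 3 (3.58). Syt13 had 113 CPM in replicate 3 and 14.6 to 45.5 in the others, and without that library the slopes of Syt13 and Creg2 were -0.35 and -0.31 and no longer passed.

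The libraries at the ends carried much of this covariation. In batch 1, which holds replicates 3, 5 and 6, 2260 genes passed with Pax6 (7.8% up and 9.5% down), and in batch 2 alone 5 did (backgrounds 0.0302% up and 0.00755% down). Without replicate 3 the count was 1483 (5.54% up and 5.19% down), without replicate 5 1945, without replicate 6 1628, and without both replicates 5 and 6, an alternative chosen after seeing the data, 212 (backgrounds 0.452% up and 1.07% down). Of the 25 cell cycle genes, 25 rose in batch 1 alone, 23 without replicate 3, and 0 in batch 2 alone or without replicates 5 and 6, where the median slopes were 0.0425 and 0.0926. Of the maturing neuron genes that fell, the count was 13 in batch 1, 7 without replicate 3, and 0 in batch 2 or without replicates 5 and 6. Early astrocyte genes gave 10, 8, 0 and 1 (in batch 1, without replicate 3, in batch 2 and without replicates 5 and 6). In the same order, rises numbered 10, 9, 0 and 0 for intermediate progenitor, 7, 9, 0 and 4 for radial glia, 4, 3, 0 and 1 for deep-layer, 1, 0, 0 and 0 for upper-layer and 4, 3, 0 and 2 for telencephalon genes. Falls numbered 7, 4, 0 and 0 for oligodendrocyte precursor, 7, 6, 1 and 3 for striatal, 2, 1, 0 and 3 for interneuron and 2, 2, 0 and 2 for deep-layer genes. Gene length moved with the libraries too: the slope of log2 CPM on log10 of transcript length ran from -0.213 in replicate 1 to 0.242 in replicate 5, and was 0.113 in replicate 3 and -0.0113 in replicate 6. Genes that rose with Pax6 had a median transcript length of 3286 bases and those that fell 2907.5, against 2814 for all tested, and the part of length in these slopes was not tested.

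The 64 exposed libraries, which had no part in these slopes, gave mostly the same directions. Fitted with a mean for each exposed group in each batch, 44.6% of 14501 genes passed with Pax6 there (21.1% up and 23.5% down). Of the 3023 genes called in Ctrl, 98.4% had the same sign in the exposed libraries, against 78.7% of all genes, and 86.3% were called with the same sign, which is 41.1% of the calls in the exposed libraries. All 25 cell cycle and 13 intermediate progenitor genes rose there, 16 of 23 radial glia genes rose and 3 fell, 21 of 27 neuron maturation genes fell, as did 9 of 13 striatal, 10 of 10 oligodendrocyte precursor and 12 of 17 early astrocyte genes. The slope of Eomes was 0.27 per SD in these libraries, that of Neurog2 0.32, that of Gli3 0.27, that of Nefl -0.22 and that of Slc25a18 -0.45. The SD of Pax6 was smaller there, 0.209 against 0.309. A test of the difference between the slopes of Ctrl and exposed libraries, added after seeing the data, called 0 of 14554 genes for each of the 5 genes used as a covariate (edgeR quasi-likelihood, a background of 0%; no other tool was run). At an unadjusted p under 0.05 there were 1138 genes for Pax6, 2466 for Rbfox3, 949 for Olig1, 1094 for Hbb-bs and 858 for Cldn5, and the smallest adjusted p of edgeR was 0.142, 0.0964, 0.154, 0.0914 and 0.29. Genes are not independent of each other, so these shares describe the embryos and are not tests.

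**Figure D5:**
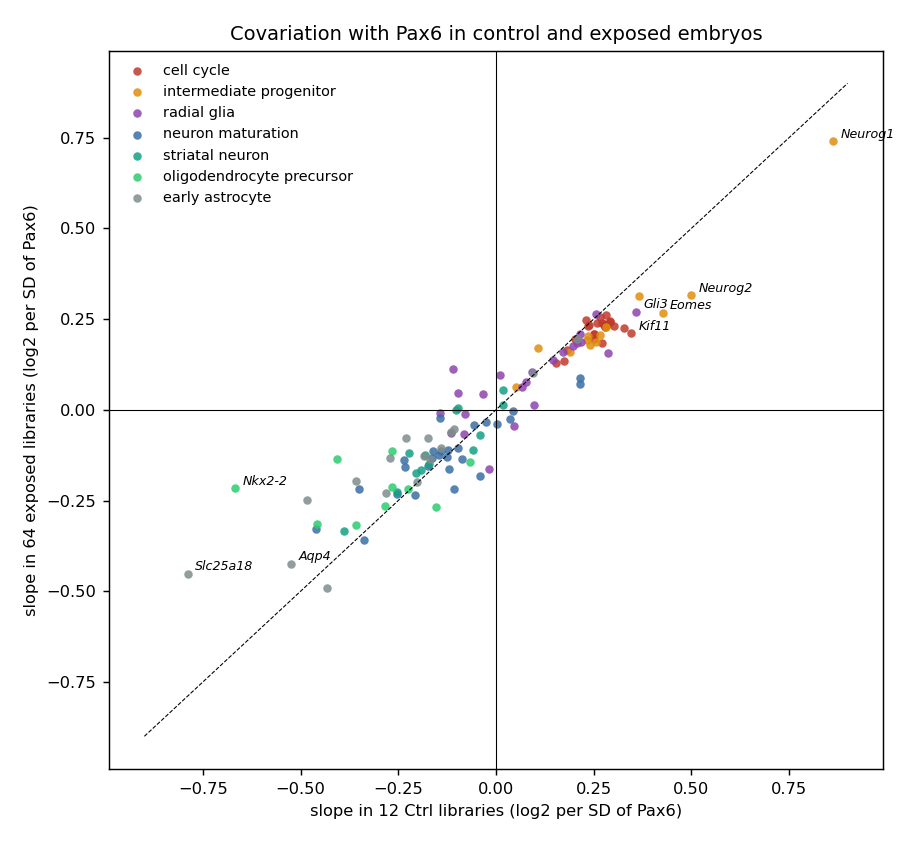
Slope of each gene of 7 lists on Pax6 (log2 per SD of Pax6) in the 12 Ctrl libraries (horizontal) and the 64 exposed libraries (vertical), coloured by list, with a dashed line of equality. Cell cycle and intermediate progenitor genes lie in the upper right, with Neurog1 at 0.86 and 0.74, and glial genes mostly in the lower left, with Slc25a18 at -0.79 and -0.45.

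Olig1 gave nearly the reverse picture. With Olig1, 1993 genes rose (background 14.5%) and 1542 fell (11.2%) by the same edgeR test, and 2851 genes were called with both Olig1 and Pax6, each in opposite directions. The 2 fits use the same libraries, in which Olig1 and Pax6 were opposed, so the one is no independent support of the other. Of 25 cell cycle genes 25 fell, of 13 intermediate progenitor genes 11 fell, of 24 radial glia genes 10 fell and 5 rose, and of 7 telencephalon genes 6 fell. Of 27 neuron maturation genes 17 rose and 2 fell, 7 of 13 striatal genes rose, 11 of 17 early astrocyte genes rose and 1 fell, and 7 of the 9 other oligodendrocyte precursor genes rose. Vsnl1 had a slope of 0.50 ± 0.04 per SD of Olig1 (SE, n = 12, edgeR adjusted p = 3.2e-06), Aqp4 0.61 ± 0.07 (edgeR adjusted p = 2e-05), Olig2 0.30 ± 0.03 (edgeR adjusted p = 1.3e-05) and Neurog2 -0.53 ± 0.05 (edgeR adjusted p = 3.9e-05). Nefm and the interneuron factors Lhx6 and Dlx6 passed with Olig1 (0.11 ± 0.03, 0.08 ± 0.03 and 0.14 ± 0.05) and not with Pax6, but the difference was not tested.

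With Olig1 the number of calls also moved when libraries were left out. In batch 2 alone 292 genes passed (1.19% up and 1.01% down), without replicates 5 and 6 1594 (7.04% and 4.41%), without replicate 3 1928 (7.14% and 6.81%) and without replicate 6 2257. Without replicates 5 and 6, 9 of 27 neuron maturation genes, 6 of 17 early astrocyte and 5 of 9 oligodendrocyte precursor genes still rose, 5 of 13 intermediate progenitor and 4 of 25 cell cycle genes fell. In batch 2 alone the counts were 2, 2, 0, 2 and 0. The largest slope, that of Tcf7l2 (0.95 ± 0.26, edgeR adjusted p = 0.0231), fell to 0.29 without replicate 3 and then did not pass. Of 7 diencephalon genes 3 rose with Olig1 in all 12 libraries, and replicate 3 was the highest library for Olig1 and for 6 of those 7 genes. In the exposed libraries 45.3% of genes passed with Olig1 (23.4% up and 21.9% down), and 97.9% of the Ctrl calls had the same sign there, against 79.2% of all genes.

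Rbfox3, the neuronal gene, had little spread and 1 call. Only Nrgn, a calmodulin-binding protein of maturing neurons, passed in the 12 Ctrl libraries (27.1, 60.5 and 96.3 CPM, slope 0.41 ± 0.05 per SD of Rbfox3, SE, n = 12, edgeR adjusted p = 0.0482), a background of 0.00727%, with 2827 genes at an unadjusted p under 0.05 and 685 called by DESeq2. Nrgn was highest in replicate 7 (96.3), as Rbfox3 was (113), and it did not pass when any of 9 of the 12 libraries was left out. Slopes were positive for 23 of 26 other neuron maturation genes (median 0.132) and for 0 of 25 cell cycle genes (median -0.221), none called other than Nrgn. Camk2a had a slope of 0.24 ± 0.05 (edgeR adjusted p = 0.0936) and Syp, a synaptic vesicle protein, of 0.14 ± 0.04 (edgeR adjusted p = 0.1). In the exposed libraries, where 51.5% of all genes passed (25.9% up and 25.5% down), 15 of 26 neuron maturation genes rose and 0 fell, 6 of 12 upper-layer and 7 of 14 deep-layer genes rose, and 19 of 25 cell cycle and 77 of 80 ribosomal protein genes fell.

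No gene passed with Hbb-bs, the blood gene, in the controls. Hba-a1 had 302, 337 and 435 CPM and Hba-a2 338, 379 and 514 (lowest, median and highest library), both highest in replicates 11, 2 and 1, where Hbb-bs was also highest. Their slopes per SD of Hbb-bs were 0.15 ± 0.03 and 0.17 ± 0.03 (SE, n = 12, edgeR adjusted p = 0.183 for each). Hbb-bt and Alas2, the erythroid enzyme of haem synthesis, had 0.14 ± 0.03 and 0.18 ± 0.05 (edgeR adjusted p = 0.197 and 0.201). The count called was 0 of 13758 (0%), with 1626 genes at an unadjusted p under 0.05 and 287 by DESeq2. In the same fit 79 of 80 ribosomal protein genes, 20 of 24 endothelial, 16 of 21 microglial and 13 of 16 meningeal genes had positive slopes, none called. In the exposed libraries, where 48.6% of all genes passed (24.7% up and 23.9% down), 77 of 80 ribosomal protein genes rose with Hbb-bs, as did 4 of 6 erythroid, 15 of 24 endothelial, 7 of 13 mural, 16 of 21 microglial and 15 of 16 meningeal genes, and Hba-a1 and Hba-a2 had slopes of 0.23 and 0.22.

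Vessel genes shared a direction with meningeal and mural genes, and also with glial and striatal genes, again without a call in the controls. The gene Cldn5 was lowest in replicates 5 and 11 (57 and 57.5 CPM) and highest in replicate 1 (105). With it, 0 of 13758 genes passed by edgeR (0%), 2003 had an unadjusted p under 0.05 and DESeq2 called 76. Slopes were positive for 18 of 23 other endothelial genes (median 0.106), 11 of 13 mural (0.171), 15 of 21 microglial (0.112) and 15 of 16 meningeal genes (0.465). They were positive too for 9 of 10 oligodendrocyte precursor (0.201), 15 of 17 early astrocyte (0.162) and 11 of 13 striatal genes (0.118). None of the 25 cell cycle (-0.157) or 13 intermediate progenitor genes (-0.16) had a positive slope. Ramp2, an adrenomedullin receptor partner, had 13, 16.5 and 23.5 CPM and a slope of 0.15 ± 0.05 (SE, n = 12, edgeR adjusted p = 0.26). The endothelial cadherin Cdh5 had 19, 25.1 and 33.1 CPM and 0.16 ± 0.06 (edgeR adjusted p = 0.266), and Col1a1 0.73 ± 0.30 (edgeR adjusted p = 0.307). Ramp2 and Cdh5 were highest in replicate 1, which was also the highest in the meningeal score. In the exposed libraries 41% of all genes passed (20.5% up and 20.5% down). There 20 of 23 endothelial, 10 of 13 mural, 17 of 21 microglial and 16 of 16 meningeal genes rose with Cldn5. So did 5 of 7 erythroid and 73 of 80 ribosomal protein genes. In the controls, by contrast, only 23 of 80 ribosomal protein genes had positive slopes (median -0.0154).

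Some genes differed between the labelled batches. Of 13759 genes 630 differed between batches with sex as a term (4.58% by edgeR's quasi-likelihood test, 6 libraries against 6), 370 higher in batch 2 (2.69%) and 260 lower (1.89%). Fn1, the matrix protein fibronectin, had 37.5 ± 8.27 CPM in batch 1 and 82 ± 12.4 in batch 2 (SD, n = 6 each), and Tnc, a matrix protein of radial glia, 108 ± 14.6 and 190 ± 27.2. Their log2 differences were 1.14 ± 0.15 and 0.79 ± 0.09 (SE, edgeR adjusted p = 0.0045 and 0.0024). Frem2 (1.13 ± 0.13), Fbn1 (1.04 ± 0.13), Lrp1 (0.92 ± 0.11), Fras1 (0.83 ± 0.09), Tenm2 (0.70 ± 0.08), Ptprd (0.61 ± 0.08), Zzef1 (0.52 ± 0.06) and Cacna1d (0.44 ± 0.06) completed the 10 genes of lowest p, all higher in batch 2. Genes higher in batch 2 had a median transcript length of 6807.75 bases and those lower 1571.25, against 2814 for all genes, and the part of length in the batch difference was not tested. By list, Tnc and Ptprz1 of radial glia, Gria2, Grin2b and Map2 of neurons, Kdr, Flt1 and Robo4 of endothelium, Vegfa and Adm of hypoxia, Pdgfrb, Fbln1, Cspg4, Ccn2 and Reln were higher in batch 2, and mt-Nd4, mt-Nd6 and mt-Nd4l lower, with 0 calls among cell cycle, intermediate progenitor, upper-layer, striatal, early astrocyte, erythroid and ribosomal protein genes. The count ran from 102 without replicate 7 to 2012 without replicate 3 and moved by over 1.5 times when replicate 2, 4, 6, 8, 9, 11 or 12 (116, 210, 364, 264, 269, 313 and 195) or replicate 1 (385) was left out. With replicate 5 left out it was 935, with replicate 10 642.

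Sex separated 5 genes (0.0363% of 13759, of which 4 were higher in males, 0.0291%, edgeR quasi-likelihood, 7 male and 5 female embryos), and no gene of the cell class lists. The Y-linked genes Kdm5d, Ddx3y, Uty and Eif2s3y lay between 10.4 and 35.2 CPM in the 7 males. In the females they were at 0 in 4 of 5 libraries and at 0.109 to 0.821 CPM in replicate 7. The X-linked Eif2s3x had 258 to 299 CPM in males and 381 to 464 in females, with a log2 difference of -0.57 ± 0.05 (male minus female, SE, edgeR adjusted p = 8.3e-05). The sexes did not overlap for any of these 5 genes. Nor did they overlap on the second principal component of batch-centred log2 CPM, which held 18.5% of the variance. Its scores were 3.31 to 14.4 in females and -8.22 to -2.8 in males. Y genes with a mean of at least 10 CPM entered that component, and their part in it was not tested.

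No difference in the spread between embryos was detected between control and exposed groups. The distance of a library from the mean of its group and batch, as a root mean square over genes in log2 CPM, was 0.186 ± 0.052 in Ctrl (SD, n = 12) and 0.196 ± 0.0705 in the exposed groups (SD, n = 64). The difference of -0.0101 did not pass (permutation test over libraries, 2-sided, p = 0.624). Among Ctrl libraries replicate 3 had the highest distance, 0.307, and replicate 9 the lowest, 0.126. Among exposed libraries Paternal_0.3Cyp replicate 8 stood far out at 0.63, with the next highest at 0.346. That library was not left out on its own here or in the exposed slopes. In batch 1 alone the difference was 0.026 (permutation p = 0.234) and in batch 2 alone -0.0441 (permutation p = 0.166), and neither passed.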

How the data were processed

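Expected counts per gene for 76 libraries were deposited by the authors as whole numbers. Trim Galore 0.5.0, Salmon 1.10.1 and the build mm10 are named in the submitters' processing notes; annotation release, gene filter and rounding are not given in the sources used here. Samples were grouped by label. The table holds 14823 genes, of which 13759 passed edgeR's filterByExpr by batch in Ctrl. Libraries were scaled by TMM and fitted by edgeR 4.0.16 (robust quasi-likelihood, R 4.3.3, limma 3.58.1) with Benjamini-Hochberg adjustment over all genes tested and a threshold of 0.05. Each covariate gene entered as log2 CPM (prior count 2), centred within batch and divided by its SD. The method was tested on simulated data. Pair correlations used 1e+05 permutations within batch, or all 720 in 1 batch. Alternatives included DESeq2 1.42.0, RLE scaling, no filter, no batch term, single batches and left-out libraries. Named genes are up to 4 members of each list by level and by p, the 5 called genes of largest slope each way at 5 CPM or more, the 10 highest, most even and most variable (at 10 CPM or more) and the 10 of lowest p for batch and sex; further list members were named after their values were seen. Predicted genes (such as Gm numbers, Rik and clone names) were left out of the rankings over all genes. Members and lists were chosen with earlier results of these data known. No 2 Ctrl libraries agreed within sampling noise (smallest chi-square per gene 4.56 over 66 pairs). Results on a few genes are not reported here.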

Additional observations from a re-analysis of the deposited data

Results flagged for a closer look

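Over both batches of 6 control libraries, 84 tests were made, each within 1 batch. They looked for a library whose gap to its nearest neighbour exceeded Dixon's 95% critical value as a share of the range, and 6 met it. Chance alone gives about 1 in 20 such groups, and 3 of the 6 were replicate 3. The tests included genes chosen for the largest SD in these same libraries, Wdr41 and Col1a1 among them, and that rate does not apply to those genes. Replicate 3 had an interneuron list score of 0.218, with the next library of its batch at -0.00598. Its diencephalon score was 2.1 with the next at -0.22. Its hindbrain score, which is Gbx2 alone and a member of the diencephalon list too, was 2.5 with the next at -0.236. Replicate 10 had an endothelial score of -0.194 with the next at -0.00442. Replicate 11 had 0.156 CPM of Wdr41, where the next library of batch 2 had 16. Replicate 1 had 37.2 CPM of Col1a1, where the next library of batch 1 had 14.8.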

How the results depend on the processing

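No paired analysis was possible because the comparisons lie within Ctrl, where each replicate number occurs once, and only slopes, not levels, were compared with the exposed libraries. Over the alternatives, 263 values of the comparisons were counted as unchanged. For a correlation or the library distance, unchanged means the same direction and side of the threshold. For a count of called genes, it means a change no larger than the fold limit applied above to the batch counts. By that limit 50 counts moved. Among correlations and library distances 17 reversed, 5 newly passed and 2 no longer passed. Of the slopes and the batch and sex differences of named genes, 748 kept direction and side of the threshold, 42 no longer passed and 0 reversed. These genes were picked in the same libraries for large called slopes or lowest p, and some of those named for sex had not passed. Most alternatives also used nearly the same libraries. The count is therefore no independent support for these genes. Called with Pax6 were 5 genes in batch 2 alone and 212 without replicates 5 and 6, and 3713 in the exposed libraries of batch 2 alone. With Olig1 they were 2337 with no batch term, 292 in batch 2 alone and 1594 without replicates 5 and 6. With Rbfox3 they were 0 by RLE scaling, with no filter, in batch 2 alone or without replicates 5 and 6, 685 by DESeq2, 1321 with no batch term and 1101 in batch 1 alone. With Hbb-bs they were 1 with no filter, 287 by DESeq2, 152 in batch 2 alone and 765 without replicates 5 and 6, and with Cldn5 76 by DESeq2. Batch called 1497 genes by DESeq2 and 996 with no sex term, and sex 0 in batch 1 alone and 1 in batch 2 alone. The causes were not tested.

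With each library left out in turn, called genes ran from 1483 to 3258 with Pax6, 1928 to 3599 with Olig1, 0 to 18 with Rbfox3 (18 without replicate 9), 0 to 1 with Hbb-bs and with Cldn5, 102 to 2012 for batch and 5 to 6 for sex. The correlations ran from -0.95 to -0.9 for Pax6 and Olig1, -0.71 to -0.3 for Pax6 and Rbfox3, -0.28 to 0.18 for Pax6 and Hbb-bs, -0.8 to -0.49 for Pax6 and Cldn5, 0.32 to 0.63 for Rbfox3 and Olig1, -0.0017 to 0.27 for Rbfox3 and Hbb-bs, 0.16 to 0.45 for Rbfox3 and Cldn5, -0.33 to 0.21 for Olig1 and Hbb-bs, 0.51 to 0.79 for Olig1 and Cldn5, and -0.19 to 0.57 for Hbb-bs and Cldn5. In batch 1 alone r was -0.96 for Pax6 and Rbfox3 (adjusted permutation p = 0.0278), -0.95 for Pax6 and Olig1 (0.0556) and 0.35 for Olig1 and Hbb-bs. In batch 2 alone it was 0.19 for Pax6 and Rbfox3, -0.84 for Pax6 and Olig1 (adjusted permutation p = 0.0787), 0.82 for Pax6 and Hbb-bs, -0.066 for Rbfox3 and Cldn5, -0.96 for Olig1 and Hbb-bs, 0.9 for Olig1 and Cldn5 (0.0486 for each) and -0.84 for Hbb-bs and Cldn5. The library distance of Ctrl exceeded that of the exposed groups by 0.026 in batch 1 alone. At these depths 1 count is 0.0528 CPM, so values below about 1 CPM rest on few counts.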

Other observations

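Some genes outside the cell class lists had a wide range over the control libraries, given here in CPM scaled over all 76. Wdr41 had 0.159 in Ctrl replicate 11 and 16 to 22.9 in the other 11, and 17 of 64 exposed libraries were below 50% of the median over all 76. Ap2a1, a subunit of the clathrin adaptor, ran from 1.06 to 109 over the Ctrl libraries, the calcium channel Cacna1h from 6.56 in replicate 3 to 100, and Rps27, a ribosomal protein gene, from 2.53 to 60. Nnt, the mitochondrial transhydrogenase, had 2.34, 2.12 and 8.64 in replicates 3, 4 and 12. A different gene model with the same symbol had 10.3, 12.4 and 7.28 in these and 0 in the other 9 Ctrl libraries, and the sum of both ran from 12.7 to 20.8. That model was above 0 in 21 of 64 exposed libraries, at 2.77 to 16.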
